A study of Mus musculus with 4 samples.

Results

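The expression of 9 genes of steroid handling was followed with age in the mouse nasal mucosa: the steroid reductases *Srd5a1*, *Srd5a2* and *Srd5a3*, the hydroxysteroid dehydrogenases *Hsd3b1*, *Hsd3b6*, *Hsd11b1* and *Hsd17b2*, and the nuclear receptors *Esr1* (estrogen receptor alpha) and *Nr3c1* (glucocorticoid receptor). They were taken from the arrays by the accession of each probe, which gave 9 of the 45604 genes tested and 16 of the 56605 probes. Gene expression had been measured on 4 one-color Agilent arrays of nasal mucosa (olfactory epithelium in the sample titles) from male C57BL/6 mice (C57BL/6J in the sample labels). Of these arrays, 2 were from young adult mice (8 weeks) and 2 from aged mice (16 months). The study names no treatment and no genetic change in either group. Each array carried RNA pooled from 5 mice. The mice that the study counts for its gene work are too few per age to fill separate pools of this size, and whether the pools of one age shared mice was not stated, so that P-values measure the spread between these arrays, which may be in part technical. The first array of each age shared a slide, whereas the second arrays were on separate slides. A further label, which names silica aspiration and lung cells, fits neither the titles nor the study and was not used.

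The action of steroid hormones can be adjusted on site in the tissues they reach. Enzymes of the reductase and dehydrogenase families turn circulating steroids into more or less active forms inside the cell, and receptors such as the glucocorticoid and estrogen receptors then bind the active form and change transcription in the nucleus. The olfactory mucosa is rich in steroid- and odorant-metabolizing enzymes, most of them in sustentacular cells and Bowman's glands, and its neurons are renewed through life. *Srd5a1* and *Srd5a2* encode enzymes that reduce testosterone to the stronger androgen dihydrotestosterone and that also reduce progesterone and corticosterone. *Srd5a3* is of the same family but is best known for its part in making dolichol, the lipid carrier of N-linked glycans.

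Because 1 of the 3 reductase genes passed the test described below and the others did not, the 250 bases before their start sites are shown side by side. The sequences are from RefSeq on the GRCm38.p6 build, in the direction of transcription, at chr13:69611464-69611713 (minus strand) for *Srd5a1*, chr17:74047861-74048110 (minus strand) for *Srd5a2* and chr5:76140023-76140272 (plus strand) for *Srd5a3*. Capitals mark the GC box, GGGCGG, read on both strands.
Srd5a1: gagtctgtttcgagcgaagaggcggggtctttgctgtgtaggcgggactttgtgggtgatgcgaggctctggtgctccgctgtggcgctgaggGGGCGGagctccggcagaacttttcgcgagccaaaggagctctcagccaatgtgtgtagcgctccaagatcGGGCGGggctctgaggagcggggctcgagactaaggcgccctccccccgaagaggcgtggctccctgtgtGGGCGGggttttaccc
Srd5a2: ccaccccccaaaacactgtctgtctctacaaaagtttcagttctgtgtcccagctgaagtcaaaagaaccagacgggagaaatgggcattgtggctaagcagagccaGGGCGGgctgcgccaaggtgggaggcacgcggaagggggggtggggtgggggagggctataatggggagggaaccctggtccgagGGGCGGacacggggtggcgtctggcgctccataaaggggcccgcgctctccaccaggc
Srd5a3: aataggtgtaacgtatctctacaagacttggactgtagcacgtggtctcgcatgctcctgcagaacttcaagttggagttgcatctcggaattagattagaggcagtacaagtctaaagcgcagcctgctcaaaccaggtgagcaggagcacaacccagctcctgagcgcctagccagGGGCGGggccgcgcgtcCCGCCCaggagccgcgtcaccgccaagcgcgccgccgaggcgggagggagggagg
The *Srd5a1* window held 3 GC boxes and the *Srd5a2* and *Srd5a3* windows held 2 each, where 32.7% of all 32851 windows of this length held at least 1. The windows had 20 (*Srd5a1*), 12 (*Srd5a2*) and 19 (*Srd5a3*) CpG dinucleotides, against a median of 6 over all windows. None of the 3 held the palindromic glucocorticoid and androgen response element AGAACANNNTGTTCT (in 0.00913% of all windows), its half-site TGTTCT (16.1%), the palindromic estrogen response element GGTCANNNTGACC (0.0639%) or the TATA box TATAAA (12.4%), on either strand. Of the 9 genes, 7 had such a window, and among the other 4 of these only *Hsd3b6* held any of the 5 motifs, with 2 half-sites, which also form part of the longer palindrome where that occurs. A match of letters is a description of the window and not a binding site.

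Of the 9 genes, only *Srd5a2* passed the test between the ages, and it was higher in aged mice. A call required P below 0.05 in limma and an FDR below 0.25, adjusted by Benjamini-Hochberg across the whole table, limits under which 3.98% of all genes were called, 1.65% as higher and 2.33% as lower. With 1 of 9 called, the genes were too few for that share to be set against the background. With only 2 arrays per age, the smallest P that an exact two-sided permutation test can give for one gene is 0.333, and the calls therefore rest on limma's spread shared across genes. In whole mucosa, more RNA per cell and more cells of a type cannot be told apart.

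The normalized intensity of *Srd5a2* was 4274 and 4250 in young adult mice and 8630 and 8796 in aged mice. The aged arrays were both above the young adult arrays, and the arrays of one age differed by far less than the ages did. The mean was 4262 ± 17.1 (SD, n = 2) in young adult mice against 8713 ± 117 in aged mice. This was a log2 difference of 1.03 (standard error 0.074, 95% interval 0.81 to 1.25), or 2.04-fold, with FDR = 0.178 by limma. The difference was 1.01 within the shared slide and 1.05 between the other arrays. *Srd5a2* also passed the limits for a differentially expressed gene (mean level at least 100 and fold change at least 1.5), which 1.96% of all genes passed, 0.814% as higher and 1.15% as lower in aged mice. Its single probe was well above background on all 4 arrays and was the only one of the 16 probes past the test, against 4.5% of all probes. With any 1 of the 4 arrays left out, the log2 difference lay between 1.02 and 1.05, while the FDR by limma was 0.408 to 0.677 and no gene of the whole table was called.

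The other reductases gave no call. *Srd5a1* measured 3066 and 3210 in young adult mice and 3289 and 3188 in aged mice, so that the arrays of the ages overlapped. Its log2 difference was 0.05 (95% interval -0.19 to 0.28, FDR = 0.836 by limma). *Srd5a3* measured 1081 and 1046 in young adult mice and 1025 and 1080 in aged mice, again with overlap. Its log2 difference was -0.01 (95% interval -0.26 to 0.23, FDR = 0.951). The intervals of both genes ended well below the lower bound of the interval of *Srd5a2*, whereas the difference between the genes was not itself tested. Both small differences changed sign between the arrays that shared a slide and those that did not, from 0.10 to -0.01 in *Srd5a1* and from -0.08 to 0.05 in *Srd5a3*.

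**Figure D1:**
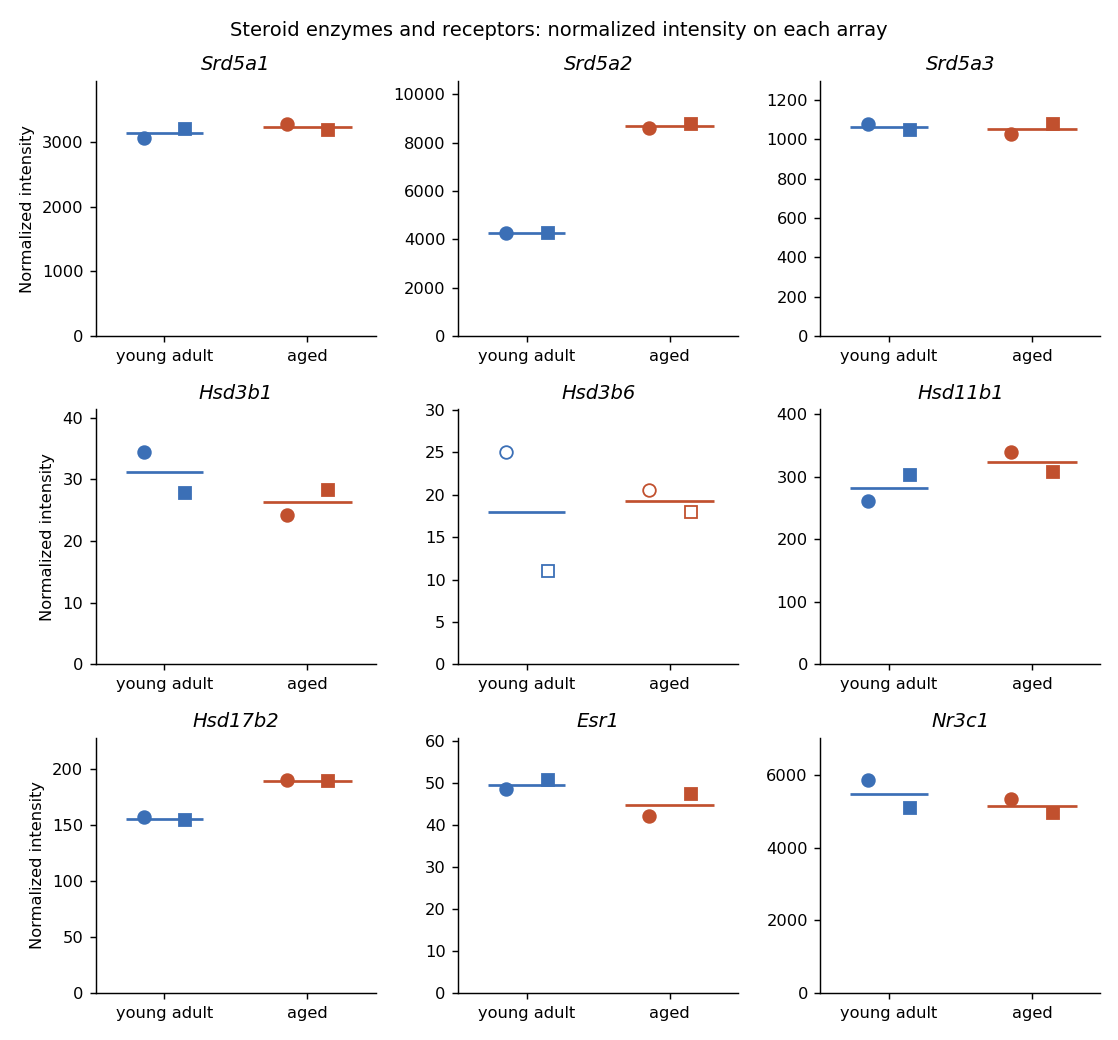
Normalized intensity (linear scale from 0, a separate axis for each gene) of the 9 genes on the young adult arrays (blue) and the aged arrays (red). Circles are array 1 and squares array 2 of each age, lines are means, and open symbols mark a gene with no probe well above background on any array. *Srd5a2* lay at 4274 and 4250 in young adult mice and at 8630 and 8796 in aged mice, while the arrays overlapped for *Srd5a1*, *Srd5a3*, *Hsd3b1*, *Hsd3b6* and *Nr3c1*.

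Among the dehydrogenases, *Hsd17b2* came nearest to a call. It encodes an enzyme that oxidizes estradiol to estrone and testosterone to androstenedione, and thereby lowers the active hormone. It measured 157 and 154 in young adult mice and 190 and 189 in aged mice, so that both aged arrays lay above both young adult arrays. The log2 difference was 0.29 (standard error 0.074, 95% interval 0.06 to 0.51), or 1.22-fold. The unadjusted P was 0.0249 and the FDR was 0.309 by limma, which misses the limit of 0.25. The difference was 0.28 within the shared slide and 0.30 between the other arrays. Over the other settings with all 4 arrays, the FDR of *Hsd17b2* ranged from 0.0852 to 0.459. It was past the limit in 2 of them, without the probes that were dim in both ages (0.0852) and with a background offset of 50 (0.242), where 24.2% and 10% of all genes were called.

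*Hsd11b1* encodes the dehydrogenase that regenerates active corticosterone from its inactive form inside cells. It measured 261 and 302 in young adult mice and 340 and 307 in aged mice, with a gap of a few units between the nearest arrays of the ages. Its log2 difference was 0.20 (95% interval -0.17 to 0.57, FDR = 0.581 by limma). The difference was 0.38 within the shared slide and 0.02 between the other arrays, and it was 0.09 without young adult array 1. *H6pd*, whose product supplies the cofactor for this reaction, measured 1869 and 1920 in young adult mice and 1673 and 1595 in aged mice (log2 difference -0.21, 95% interval -0.45 to 0.02, FDR = 0.415).

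*Hsd3b1* and *Hsd3b6* encode enzymes that convert pregnenolone to progesterone, an early step of steroid hormone synthesis in gonads and adrenals. *Hsd3b6* was measured by 1 probe that was not well above background on any of the 4 arrays, and no fold change is given. *Hsd3b1* had 2 probes, of which one was well above background on 1 array of each age and the other on none. The first probe measured 40.0 and 49.8 in young adult mice and 54.2 and 55.9 in aged mice, and the second 29.6 and 15.5 against 10.8 and 14.3, so that the probes moved in opposite directions. The gene average of these was a log2 difference of -0.24 (95% interval -0.73 to 0.25, FDR = 0.611 by limma), which became 0.30 with the more intense probe alone and 0.47 and 0.38 with the scanner software's processed signal. No direction is therefore given for *Hsd3b1*.

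The receptors gave no call either. *Nr3c1*, the receptor for corticosterone, was measured by 2 probes and averaged 5862 and 5111 in young adult mice and 5349 and 4957 in aged mice. The arrays of the ages overlapped, and the log2 difference was -0.09 (95% interval -0.43 to 0.25, FDR = 0.778 by limma). It was -0.13 within the shared slide, -0.04 between the other arrays and 0.01 without young adult array 1. The 2 probes, taken alone, gave -0.03 and -0.15.

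*Esr1* was measured by 6 probes, most of them dim. Only 2 of the 6 were well above background on all 4 arrays, 1 was so on a single young adult array, and 3 on none. The first of the brighter probes measured 102 and 116 in young adult mice and 97.0 and 87.8 in aged mice (log2 difference -0.24). The second measured 229 and 213 against 202 and 179 (-0.21). On each of these 2 probes the aged arrays were both below the lower young adult array. The average of all 6 probes was 48.7 and 50.7 in young adult mice and 42.2 and 47.3 in aged mice, a log2 difference of -0.15 (95% interval -0.45 to 0.15, FDR = 0.598 by limma). Over the other settings with all 4 arrays, its FDR by limma ranged from 0.205 to 0.84. It was past the limit only without the probes that were dim in both ages (0.205), where 24.2% of all genes were called.

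Counted over the 9 genes, both aged arrays lay above both young adult arrays in 3 (*Srd5a2*, *Hsd11b1* and *Hsd17b2*) and below them in 1 (*Esr1*). Of all genes tested, 24.2% lay above and 21.8% below in this way, 46% together, so that 4 of 9 is close to the background. At an unadjusted P below 0.05, limma gave 2 of the 9 genes, against 13.1% of all genes.

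**Figure D2:**
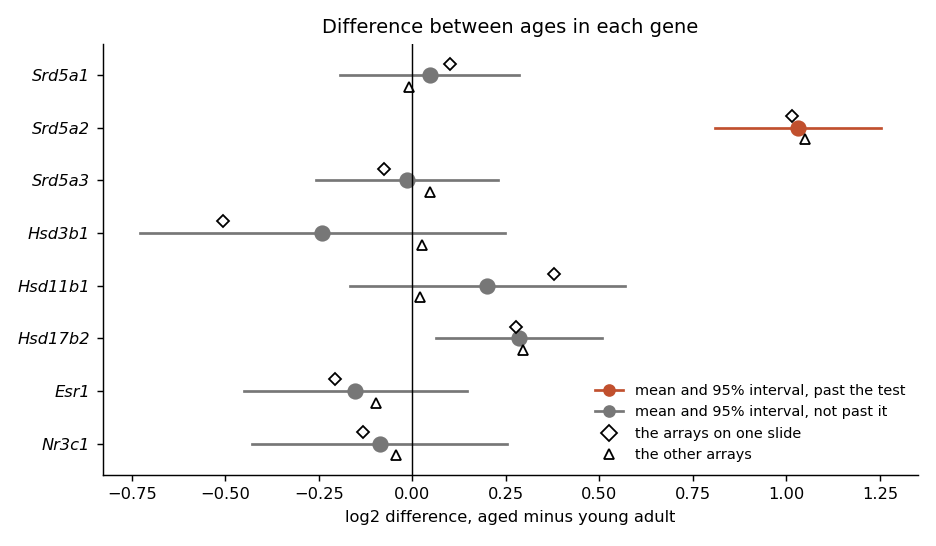
Log2 difference between the ages, aged minus young adult, for the 8 genes with a probe well above background on at least 1 array (*Hsd3b6* is left out). Filled circles and bars are limma's estimate and its 95% interval, diamonds the difference between the arrays that share a slide, and triangles that between the other arrays. The interval of *Srd5a2* ran from 0.81 to 1.25, and that of *Hsd17b2* was the only other one that did not include 0.

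The difference in *Srd5a2* was also little changed by the way the arrays were processed. Over 18 settings of background correction, normalization, probe summary and choice of arrays it ranged from 1.01 to 1.09. With all 4 arrays, the FDR by limma ranged from 9.17e-05, with a spread that follows intensity, to 0.433, with the replicate number as a block. *Hsd17b2* was above 0 in all 18 settings (0.22 to 0.30) and *Hsd11b1* likewise (0.09 to 0.38), and *Esr1* was below 0 in all 18 (-0.32 to -0.08). *Srd5a1*, *Srd5a3* and *Nr3c1* lay on both sides of 0, and *Hsd3b1* ranged from -0.51 to 0.47.

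**Figure D3:**
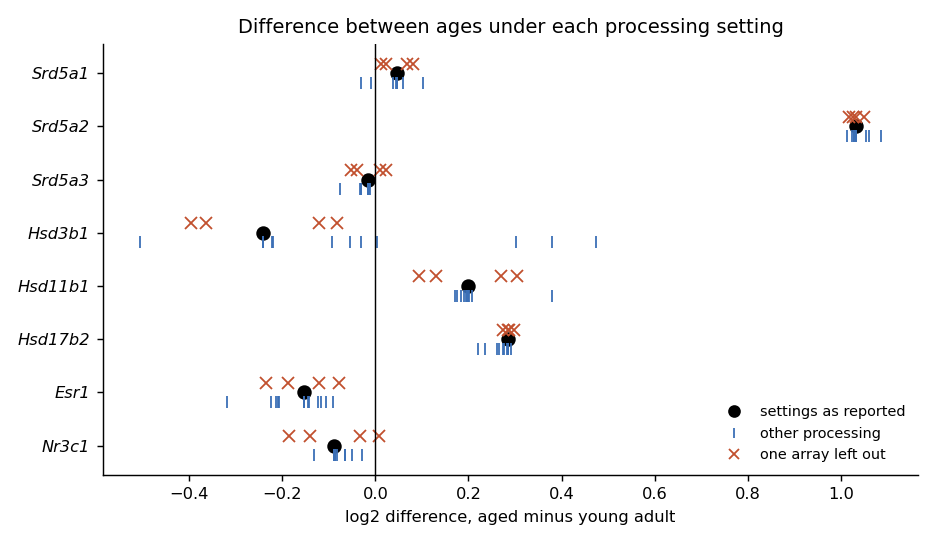
Log2 difference, aged minus young adult, of the 8 genes under each setting. Black circles are the values reported above, blue bars other ways of processing, and red crosses fits with 1 array left out. *Srd5a2* lay between 1.01 and 1.09 throughout, and *Hsd3b1* spread from -0.51 to 0.47.

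By the likeness of their log2 values over the 4 arrays, each centred on its mean, the genes nearest to *Srd5a2* were the odorant receptor genes *Olfr46*, *Olfr912* and *Olfr290*, out of 15467 named genes with a mean level of at least 100. Their root mean square distances from *Srd5a2* were 0.028, 0.034 and 0.035 on the log2 scale. *Olfr46* measured 335 and 351 in young adult mice and 693 and 715 in aged mice. The likeness is over 4 arrays only and is set mainly by the size of the difference between the ages.

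Markers of several cell types moved between the same arrays, and their part in the difference of *Srd5a2* was not tested. For scale, 1.65% of all genes were called as higher and 2.33% as lower, and the marker lists are short. The 8 markers of mature olfactory receptor neurons (ORNs) were led by *Omp* and *Gnal*. Their summed level was 451955 to 463007 in young adult mice and 506852 to 514500 in aged mice. Of the 8, 1 was called, as higher. Both aged arrays lay above both young adult arrays in all 8, against 24.2% of all genes. All 8 had a probe well above background, whereas that share includes genes with dim probes only. By immunostaining, the study counted fewer OMP-positive mature ORNs in the septal epithelium of aged mice, a measure of cells and not of RNA. The summed level of the 5 sustentacular cell markers, led by *Cyp2g1* and *Cbr2*, was 526695 to 545642 and 562312 to 569511. Of the 5, 1 was called as higher (*Cyp1a2*). *Cyp2g1* alone made up 221117 to 229701 and 251222 to 252656 of the sums. *Cbr2* went the other way, with both aged arrays below both young adult arrays (log2 difference -0.07), while they were above in the other 4. The 5 gland markers, led by *Bpifa1* and *Ltf*, were split, with 1 called as higher (*Muc5b*), 1 as lower (*Ltf*) and both aged arrays above both young adult arrays in 3. Their sum was 647876 to 659705 in young adult mice and 614903 to 627060 in aged mice, of which *Ltf* alone made up 254071 to 265972 and 158251 to 167851. Of the 6 fibroblast markers, led by *Dcn* and *Col1a2*, 4 were called as lower. The log2 differences of all 6 were negative, from -1.98 to -0.19. Their summed level was 223497 to 248179 in young adult mice and 116395 to 124423 in aged mice. Of the 8 pituitary markers, *Prl* and *Gh* were called as higher. Both aged arrays lay above both young adult arrays in 4 of the 8, against 24.2% of all genes. *Cga* measured 37.1 and 22.5 in young adult mice and 107 and 78.7 in aged mice (log2 difference 1.67, FDR = 0.26 by limma). It was not called, and it was well above background on 1 aged array only. *Prl* and *Lhb* had the highest levels of the list. The sum of the list was 1182 to 1244 in young adult mice and 9312 to 9835 in aged mice. *Prl* alone made up 238 to 282 and 7969 to 8155 of these sums. The arrays of the ages overlapped in *Lhb*, and 3 of the 8 (*Tshb*, *Fshb* and *Pou1f1*) had no probe well above background on any array. The sums of the markers of ciliated cells (*Foxj1*, *Dnah5*), endothelium (*Kdr*, *Emcn*), leukocytes (*Csf1r*, *Cd68*) and bone and cartilage (*Bglap*, *Col2a1*) were lower on both aged arrays. In this order, 0 of 4, 2 of 5, 1 of 6 and 3 of 4 were called as lower. The steroid-secreting gland markers, led by *Cyp17a1* and *Nr5a1*, had 0 of 4 called, and *Cyp11a1*, which defines such glands, had no probe well above background.

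The other genes of the pathway were examined in 9 lists. They shared 11 genes past the test, 8 higher and 3 lower in aged mice. Of all genes, 3.98% were called, 1.65% as higher and 2.33% as lower. Of the entries of the lists, 99 had a probe well above background and 15 did not, and some genes stood on several lists. The list of hormone synthesis from cholesterol had 0 of 13 genes called by limma (2 at an unadjusted P below 0.05), with a median log2 difference of 0.03 against 0.01 over all genes. Its most intense genes were *Por* and *Cyb5a*, which pass electrons to cytochrome P450 enzymes. *Por* measured 113887 and 119752 in young adult mice and 120208 and 131167 in aged mice. *Cyb5a* measured 93595 and 86720 against 124268 and 113375 (log2 difference 0.40, FDR = 0.300), without passing the test. The far dimmer *Cyp21a1* measured 186 and 132 in young adult mice and 66.3 and 78.3 in aged mice. Its log2 difference was -1.12, and its FDR of 0.26 by limma missed the limit of 0.25.

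Of 24 other steroid dehydrogenases and reductases, 1 was higher and 0 lower. This was *Hsd17b6*, whose product can oxidize a reduced androgen back to dihydrotestosterone. It measured 505 and 477 in young adult mice and 860 and 787 in aged mice, a log2 difference of 0.75 (standard error 0.094, FDR = 0.201 by limma). In 9 of the 24 no array showed a probe well above background, among them *Hsd11b2*, *Hsd17b1* and *Hsd17b3*. Of 5 genes of steroid sulfation, which inactivates hormones, *Sult1e1* was called. This estrogen sulfotransferase measured 13089 and 13002 in young adult mice and 20225 and 18949 in aged mice (log2 difference 0.59, FDR = 0.208).

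Among 7 other steroid receptors, *Gper1*, a membrane receptor for estrogen, was lower and 0 were higher. It measured 127 and 129 in young adult mice and 87.4 and 92.6 in aged mice (log2 difference -0.51, FDR = 0.221 by limma), which is under the 1.5-fold limit for a differentially expressed gene. Its call was lost with 75th percentile scaling (FDR = 0.262) and with the processed signal scaled in this way (0.257). *Esr2* and *Nr3c2*, the other estrogen receptor and the mineralocorticoid receptor, had differences of 0.31 and 0.19 (FDR = 0.418 and 0.514).

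**Figure D4:**
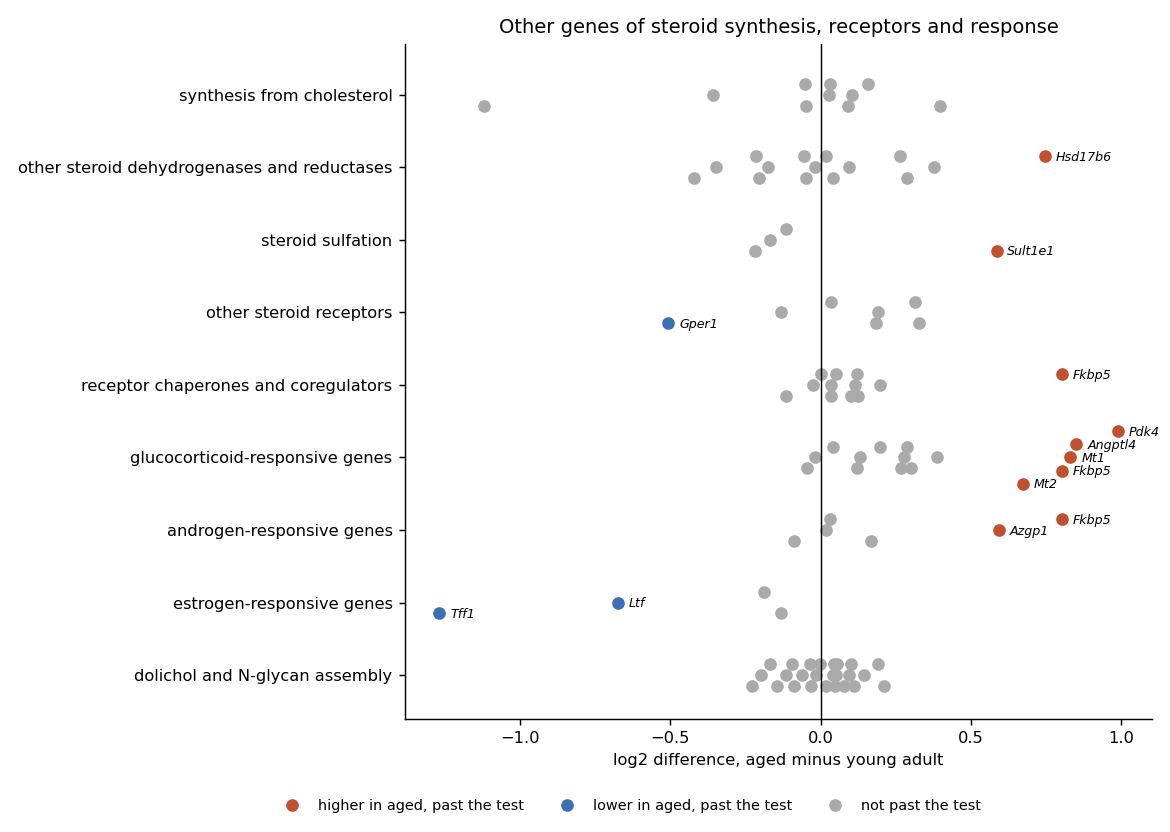
Log2 difference, aged minus young adult, of 99 entries of the 9 lists, 1 point per gene and list (15 entries with no probe well above background on any array are left out, and the height of a point within its row has no meaning). Red and blue points passed limma's test and are named. The named points of the glucocorticoid-responsive list lie between 0.67 and 0.99, and the dolichol list has none.

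Of 16 genes known to respond to glucocorticoids, 5 were higher and 0 lower in aged mice (31.2% against 1.65% of all genes), with a median log2 difference of 0.28. All 16 had a probe well above background, whereas the share of all genes includes genes with dim probes only. Without the probes that were dim in both ages, 11 of the 16 passed the test, and 3445 of the 29495 genes left were called as higher. The list was chosen with earlier results of these data known. Both aged arrays lay above both young adult arrays in 13 of the 16, where 24.2% of all genes did so, and below them in 0. The 5 were *Pdk4*, *Angptl4*, *Mt1*, *Fkbp5* and *Mt2*. *Fkbp5* encodes a cochaperone that lowers the affinity of the glucocorticoid receptor for its hormone. *Pdk4* and *Angptl4*, which restrain glucose oxidation and lipoprotein lipase, are also induced by fasting and fatty acids, and the metallothioneins *Mt1* and *Mt2* by metals.

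*Pdk4* measured 523 and 553 in young adult mice and 1009 and 1130 in aged mice, a log2 difference of 0.99 (FDR = 0.185 by limma). *Angptl4* measured 1215 and 1213 against 2268 and 2116 (log2 difference 0.85, FDR = 0.184). Neither gene had a young adult array near the aged arrays. *Mt2* measured 117953 and 120209 in young adult mice and 191977 and 187658 in aged mice (log2 difference 0.67, FDR = 0.189). The gene averages of *Mt1* and *Fkbp5*, which have 2 probes each, had log2 differences of 0.83 (FDR = 0.178) and 0.80 (FDR = 0.185). Their probes disagreed in size: 1.17 and 0.49 in *Mt1* and 1.09 and 0.52 in *Fkbp5*, where the smaller value is that of the more intense probe in both.

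Other well-known targets of the receptor did not pass the test. *Ddit4* measured 18170 and 17869 in young adult mice and 23659 and 23491 in aged mice (log2 difference 0.39, FDR = 0.251 by limma). *Nfkbia*, *Tsc22d3* and *Per1* had differences of 0.30, 0.29 and 0.28 (FDR = 0.309, 0.325 and 0.345). *Sgk1* and *Dusp1* had differences of 0.04 and -0.05, and their arrays overlapped. Of the 16 genes, 14 had an upstream window in the RefSeq table, and only 1 window of *Sgk1* held the full palindromic element. The median of the list lay between 0.26 and 0.32 in all settings. With any 1 array left out, 0 of the 16 passed limma's test, as was the case for all genes, and 5 to 6 had an unadjusted P below 0.05.

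**Figure D5:**
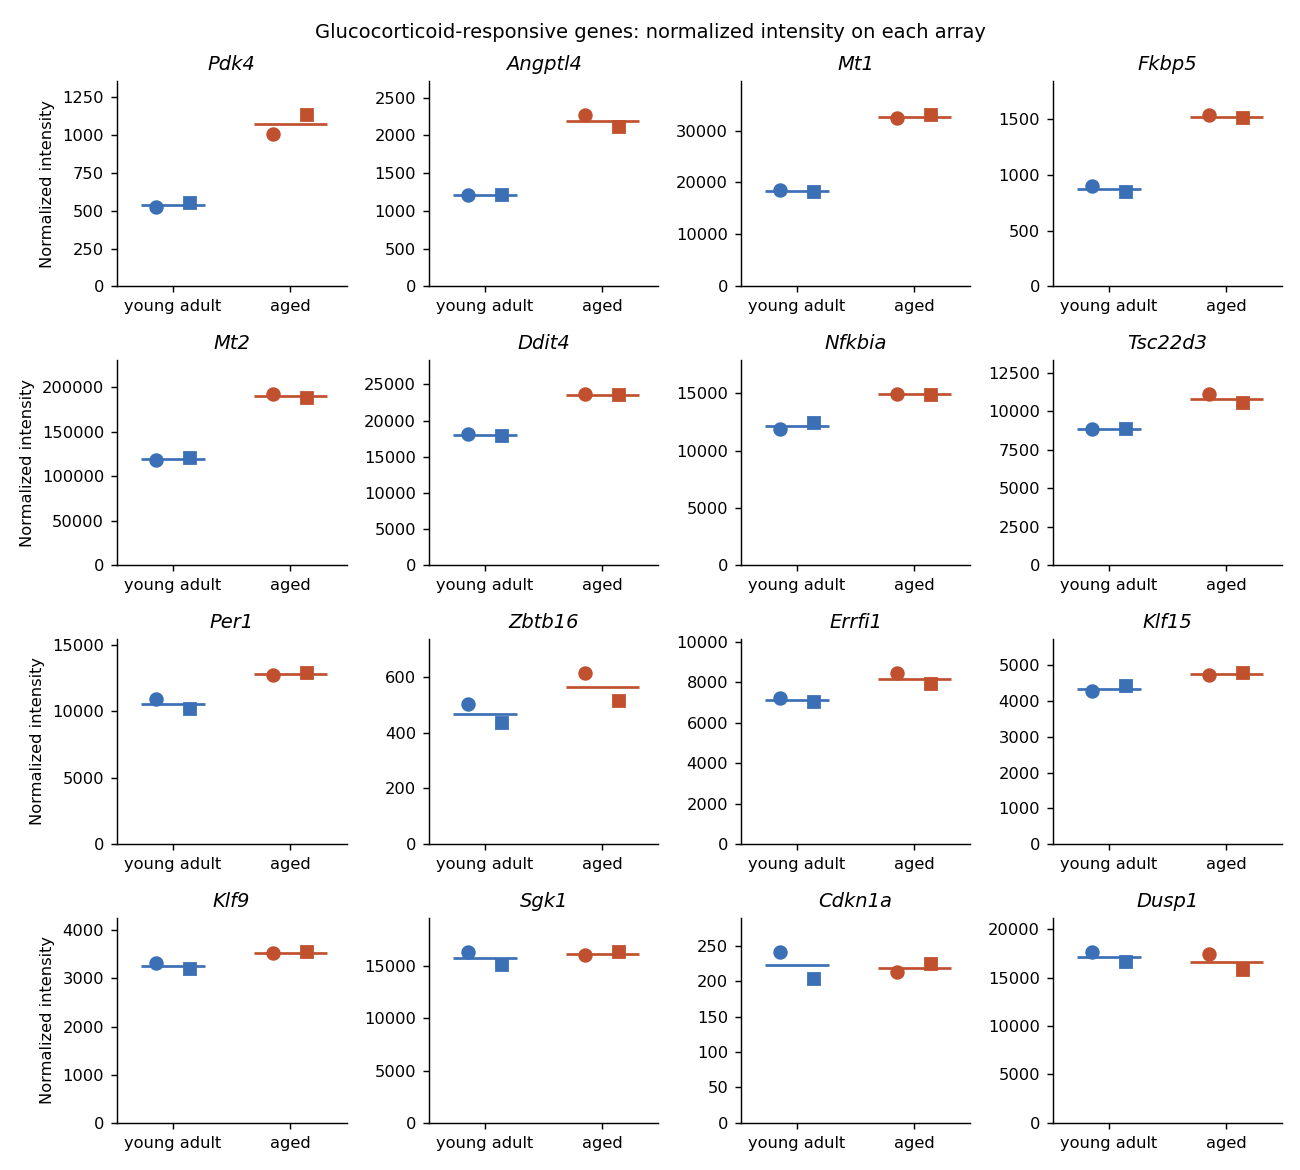
Normalized intensity (linear scale from 0, a separate axis for each gene) of the 16 glucocorticoid-responsive genes, ordered by the difference between the ages. Circles are array 1 and squares array 2 of each age, blue is young adult and red aged, and lines are means. The upper rows are separated by age, as in *Pdk4* (523 and 553 against 1009 and 1130), and the arrays overlap in *Sgk1*, *Cdkn1a* and *Dusp1*.

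Of 8 androgen-responsive genes, 2 were higher and 0 lower, too few to be set against the share of all genes, with a median log2 difference of 0.10. One was *Fkbp5*, which is also on the previous list. The other was *Azgp1*, a secreted glycoprotein of glands, which measured 5726 and 5722 in young adult mice and 9051 and 8253 in aged mice (log2 difference 0.59, FDR = 0.213 by limma), a call lost with the processed signal at the 75th percentile (FDR = 0.251). *Pbsn*, which marks the androgen response of the prostate, had no probe well above background. *Tmprss2*, *Odc1* and *Ndrg1* had differences of 0.03, 0.02 and 0.17 and did not pass.

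Of 4 estrogen-responsive genes, 2 were lower, again too few to be set against all genes. *Ltf*, the iron-binding lactoferrin of glandular secretions and also a marker on the gland list above, measured 265972 and 254071 in young adult mice and 167851 and 158251 in aged mice (log2 difference -0.67, FDR = 0.201 by limma). *Tff1*, a trefoil peptide of mucus, measured 242 and 320 against 99.2 and 134 (log2 difference -1.27, FDR = 0.248), and its call was lost in the same setting as that of *Azgp1* (FDR = 0.26). The chaperones and coregulators of the receptors had 1 of 12 called, again *Fkbp5*, with a median log2 difference of 0.08. *Hsp90aa1*, *Hsp90ab1* and *Ptges3*, which hold the receptors ready for hormone, had differences of 0.10, 0.03 and 0.05.

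The dolichol and N-glycan assembly genes, of the pathway in which *Srd5a3* is best known, had 0 of 25 called by limma and 0 at an unadjusted P below 0.05. Their log2 differences ran from -0.23 to 0.21 with a median of 0.02. The most intense were *Rpn2* and *Rpn1*, subunits of the enzyme that transfers the glycan to protein, with differences of 0.05 and -0.09.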

How the data were processed

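Nasal mucosa of mice aged 8 weeks (young adult) and 16 months (aged) was measured on 4 one-color arrays, 2 per age, grouped by the sample labels. The authors extracted the spots with Agilent Feature Extraction 11.0.1.1 and deposited, per array, the median intensity of each spot and of its local background, a processed intensity and flags of spot quality, not normalized across arrays. The labels name R 3.2.1 for their later steps. The deposited series table equalled the processed intensity at all 62976 spots of each array.

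Here, intensities were background-corrected by normexp (offset 0, limma 3.58.1, R 4.3.3) on all spots, control and outlier-flagged spots were dropped, spots of a probe averaged, arrays quantile normalized, and probes of a gene averaged on the log2 scale (12 genes with a missing array were left out). The mean spot signal was not used. Of 56605 probes, 32994 (58.3%) matched a RefSeq symbol (GRCm38.p6) and the rest kept the array's identifier. Since the array design names another build, no probe coordinates were taken. No spot of the 9 genes was saturated or had an outlier flag, and 63.1 to 76.8% of non-control spots were well above background. The number of arrays limits the precision.

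The ages were compared with limma (lmFit and eBayes, no covariates, 1.38 prior and 2 residual degrees of freedom) over 45604 genes, and the code was tested on simulated data. The genes named were the 9, the list genes past the test (or, with none, the 2 of highest level), the 3 genes nearest to a member past the test and the 2 most intense of each marker list. Further genes (*H6pd*, *Esr2*, *Nr3c2*, *Ddit4* and other list genes without a call) were named after their values were seen, and some list genes are not reported here by name. The genes, lists and tests were chosen with earlier results of these data known. The alternatives were other offsets, no background correction, the processed intensity, 75th percentile or cyclic loess normalization, flagged spots kept, dim probes left out, other probe summaries, an intensity trend, a replicate block, one slide alone, each array left out, and stricter FDR limits.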

Additional observations from a re-analysis of the deposited data

How the results depend on the processing

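The number of the 9 genes past the test was 1 in the settings reported. It was 2 with a background offset of 50 (*Srd5a2* and *Hsd17b2*), 3 without the probes that were dim in both ages (also *Esr1*), and 0 with the replicate block, with an FDR limit of 0.05 or 0.1, and with any 1 array left out (0 to 0). In those settings 1 or 2 of the 9 had an unadjusted P below 0.05 by limma. The count past the level and fold limits was 1, and 0 in the same settings (0 to 0 with an array left out). Of the separate probes, 1 passed, 4 with the processed signal and quantile normalization, 2 with 75th percentile scaling, 2 without dim probes, and 0 in the same settings (0 to 0 with an array left out). The glucocorticoid-responsive genes past the test were 5, 9 with an offset of 50, without background correction and with the quantile-normalized processed signal, 11 without dim probes and with an intensity trend, and 0 in the same settings (0 to 0). The list genes past the test were 11, then 19 with an offset of 50, 19 without background correction, 18 with the quantile-normalized processed signal, 29 without dim probes, 39 with an intensity trend, and 0 in the same settings (0 to 0), where with an array left out 12 to 17 of them had an unadjusted P below 0.05. The list genes past the test fell to 9 with the processed signal and 10 with the spot signal, each scaled to the 75th percentile, where *Gper1* was lost in both and *Azgp1* and *Tff1* in the first. In the first, a list gene not among the 11 was also called, as lower. Apart from 75th percentile scaling, the calls over the whole table rose in the settings above in which the counts rose: 3.98% of genes in the settings reported, 10% with an offset of 50, 8.83% without background correction, 9.59% with the quantile-normalized processed signal, 24.2% without dim probes and 15.6% with an intensity trend. With 75th percentile scaling of the spot signal, where 2 separate probes passed, 3.09% of genes were called. The causes of these moves were not tested.

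The signs that turned belonged to small or dim values, none of them called. *Srd5a1* was -0.0094 with the processed signal at the 75th percentile and -0.031 with it quantile normalized. *Hsd3b1* was 0.47 and 0.38 with these, 0.30 with the most intense probe and 0.0030 with linear averages. With 1 array left out, *Srd5a3* ranged from -0.052 to 0.023, *Nr3c1* from -0.19 to 0.0082 and *Hsd3b6*, which was not well above background, from -0.38 to 0.81. The replicate numbers were treated as unpaired, since same-numbered arrays deviated with a correlation of -0.08 over genes. With the number as a replicate block, no gene of the 45604 was called, and the FDR of *Srd5a2* was 0.433 at the same log2 difference of 1.03. Slide as a random block was not run to a value, because its correlation could not be estimated with 3 slides, and 2 arrays against 2 with dim probes for *Hsd3b1*, *Hsd3b6* and most of *Esr1* limit what can be called.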
